A study of Mus musculus with 10 samples.

Results

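The genes described here encode the phosphatase calcineurin, its Rcan regulators and the NFAT transcription factors that it controls. There are 10 of them among the 53379 genes with counts: *Rcan1*, *Rcan2* and *Rcan3*, the catalytic subunit genes *Ppp3ca*, *Ppp3cb* and *Ppp3cc*, the regulatory subunit gene *Ppp3r1*, and the factors *Nfatc2*, *Nfatc3* and *Nfatc4*. They were found by symbol, and the list was chosen by family and pathway with the cKO against control results of these same libraries already known. Differences between the genotypes in these 10 genes are therefore given as a description, without p values.

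Each of the 10 libraries came from the neocortex of a single mouse embryo at embryonic day 16 (E16), from which 400 MADM-labeled cells of the *Emx1*+ lineage were sorted and sequenced by Smart-Seq2. The 3 cKO-*Cdkn1c*-MADM-7 embryos carried *Cdkn1c-flox* from both parents (on the GT and on the TG chromosome of MADM-7, with Emx1 Cre/+), and the 7 control MADM-7 embryos (MADM-7 GT/TG with Emx1 Cre/+) carried no floxed allele. All 10 shared the chromosome 7 MADM cassettes, *Emx1*-Cre and a mixed C57BL/6J and CD1 background, which the labels shorten to CD1. *Emx1*-Cre acts in cortical progenitors and their progeny, and GFP+, tdT+ and GFP+/tdT+ cells were pooled, so the libraries hold a mixture of progenitors and neurons in which a change in the share of a cell type and a change in RNA per cell cannot be told apart.

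Calcineurin is a calcium- and calmodulin-dependent serine/threonine phosphatase. Its catalytic A subunit pairs with the calcium-binding B subunit, and when calcium rises the enzyme removes phosphates from NFAT factors, which then enter the nucleus. Rcan proteins bind calcineurin and can inhibit it, and in neurons the pathway is known for its part in axon growth and synaptic plasticity.

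Between 2417184 and 2998916 reads fell on genes in the cKO libraries and between 1738220 and 3362487 in controls. *Cdkn1c* had 10 to 32 reads in cKO and 116 to 369 in controls, a log2 fold change of -3.66 (SE 0.31; edgeR quasi-likelihood, adjusted p = 3.68e-06), in the direction of the labels. Of 11551 genes that averaged 10 reads or more, 262 were higher in cKO at an adjusted p under 0.05 (2.27%) and 102 lower (0.883%). Uniquely aligned reads outside genes split the libraries into a set of 1 cKO and 4 controls (5.47% to 8.64%) and a set of 2 cKO and 3 controls (12.8% to 16.7%). Hemoglobin and other blood genes summed to 2301 CPM (reads scaled by library size) in cKO replicate 1, 1499 in control replicate 2 and 1817 in control replicate 5, and to 65.5 CPM or less in the other libraries. Markers of microglia summed over 9 genes to 5.91 to 39.9 CPM in cKO (median 11.8) and 2.14 to 7.55 CPM in controls (median 3.24). Markers of endothelial and mural cells summed over 8 genes to 1.01 to 19.3 CPM in cKO (median 10.6) and 0 to 4.66 CPM in controls (median 2.88), with *Abcc9* at 0 in all libraries. No microglial, endothelial or mural marker had enough reads to be tested, 5 of 7 blood genes did, with a median log2 fold change of 1.03, and the part of these cells in the differences of the calcineurin genes was not tested.

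All 10 genes passed the filter on low counts, and 1 of them, *Rcan2*, was called higher in cKO while 0 were called lower (edgeR; 3.15% of all genes tested were called in either direction). *Rcan2* was also the only one of the 10 in which no cKO library overlapped the controls in CPM, a separation seen in 6.00% of all genes tested. Since this contrast was known when the genes were picked, nothing is read from these counts. Of the log2 fold changes 5 were positive and 5 negative, with a median of 0.012 over the 10 genes and 0.011 over all genes tested.

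**Figure D1:**
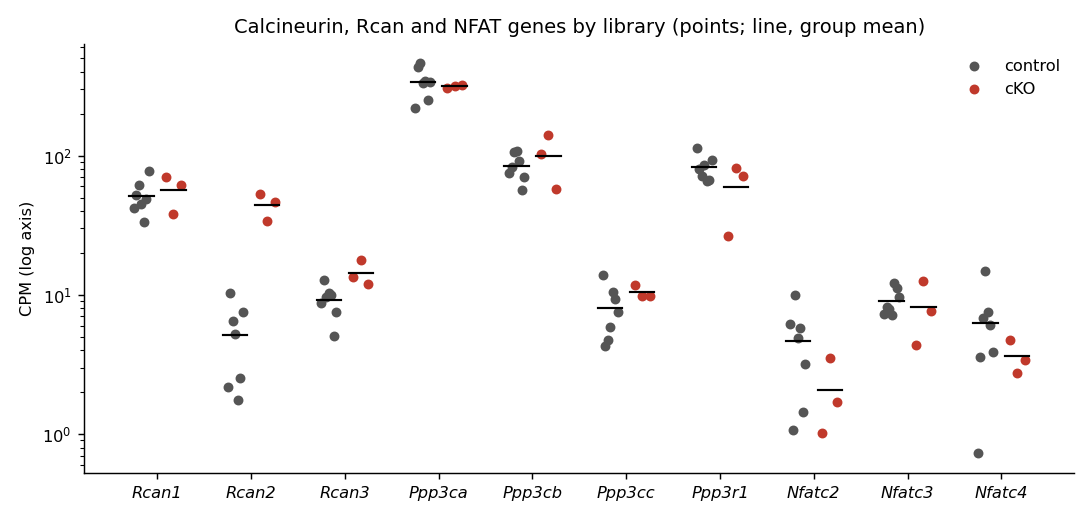
CPM of each gene on a log axis, with 1 point per library, controls in gray and cKO in red, and a line at each group mean. The *Rcan2* points of cKO, from 33.9 to 52.6 CPM, lie above all control points, and in the other 9 genes the groups overlap.

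*Rcan2* (ENSMUSG00000039601.15, GRCm38 chromosome 17, 43801351 to 44039516, plus strand) encodes a regulator of calcineurin that is known to be expressed in brain. *Rcan2* was taken because it was the only one of the genes called, in the contrast that was already known. RefSeq gives it 3 starts that gene-level counts cannot separate. The 250 bases before its most upstream and its most downstream start are printed here. They are set beside the same windows of *Rcan1* (ENSMUSG00000022951.15, chromosome 16, 92391953 to 92470867, minus strand), whose downstream promoter is known to respond to calcineurin and NFAT. The sequences are from RefSeq on GRCm38.p6, 5′ to 3′ on the strand of the gene, and capitals mark matches on either strand to the NFAT core GGAAA, to the AP-1 motif TGACTCA, to the CRE motif TGACGTCA or to the CARE motif TGATGNAA.
*Rcan2*, upstream start, chr17:43801102-43801351, plus strand: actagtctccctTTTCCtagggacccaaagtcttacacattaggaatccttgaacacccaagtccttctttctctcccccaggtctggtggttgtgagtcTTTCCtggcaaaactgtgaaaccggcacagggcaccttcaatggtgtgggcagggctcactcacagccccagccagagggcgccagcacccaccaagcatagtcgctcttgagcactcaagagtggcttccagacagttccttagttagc
*Rcan2*, downstream start, chr17:43952749-43952998, plus strand: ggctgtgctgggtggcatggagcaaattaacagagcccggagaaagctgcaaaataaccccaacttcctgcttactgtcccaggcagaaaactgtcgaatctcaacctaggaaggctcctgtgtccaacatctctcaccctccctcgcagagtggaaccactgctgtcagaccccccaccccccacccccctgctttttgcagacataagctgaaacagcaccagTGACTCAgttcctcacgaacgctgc
*Rcan1*, upstream start, chr16:92466170-92466419, minus strand: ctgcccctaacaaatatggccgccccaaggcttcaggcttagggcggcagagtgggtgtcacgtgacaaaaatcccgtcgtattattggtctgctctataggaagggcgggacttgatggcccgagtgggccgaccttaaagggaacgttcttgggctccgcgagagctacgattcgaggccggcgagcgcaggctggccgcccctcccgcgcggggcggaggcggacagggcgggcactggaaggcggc
*Rcan1*, downstream start, chr16:92400079-92400328, minus strand: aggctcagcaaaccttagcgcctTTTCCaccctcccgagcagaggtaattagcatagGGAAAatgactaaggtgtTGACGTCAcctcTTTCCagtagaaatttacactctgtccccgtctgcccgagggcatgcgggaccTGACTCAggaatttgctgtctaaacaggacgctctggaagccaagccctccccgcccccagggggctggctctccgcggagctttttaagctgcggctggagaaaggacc

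The downstream window of *Rcan1* held 3 matches to GGAAA, 1 to TGACTCA and 1 to TGACGTCA, and its upstream window held none of the motifs. In *Rcan2* the upstream window held 2 matches to GGAAA and the downstream window 1 match to TGACTCA, and the window of the middle start, which is not printed, held no match. No match to TGATGNAA was found in these 5 windows. Among 32851 windows of the same length before RefSeq starts of mouse genes, GGAAA was present in 55.6%, with 2 or more matches in 21.4% and 3 or more in 6.39%, TGACTCA in 4.46%, TGACGTCA in 1.55% and TGATGNAA in 3.45%. The matches overlapped each other in none of the printed windows. They describe letters only, and the deposited counts do not show which start was used. Windows of *Nfatc2*, *Ppp3cb* and *Nfatc4* also held 3 matches to GGAAA. Windows were held for 8 of the 10 genes, and *Ppp3ca* and *Ppp3cc* were not among them.

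*Rcan2* had 156, 86 and 110 reads in cKO replicates 1, 2 and 3, or 52.6, 33.9 and 46.7 CPM. In the 7 controls it had 3 to 29 reads, with 1.75 CPM in the lowest, a median of 5.19 and 10.3 CPM in the highest. Every cKO library was thus more than 3 times the highest control, control replicate 2. The fitted log2 fold change was 3.05 (SE 0.33), which is 8.26-fold with a 95% confidence interval of 5.13 to 13.3, and it was rank 25 by size among the genes called higher. Within the libraries with few reads outside genes the log2 ratio of mean CPM was 3.05, and within those with many it was 3.27. Leaving out any 1 library gave fitted values of 2.89 to 3.28.

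**Figure D2:**
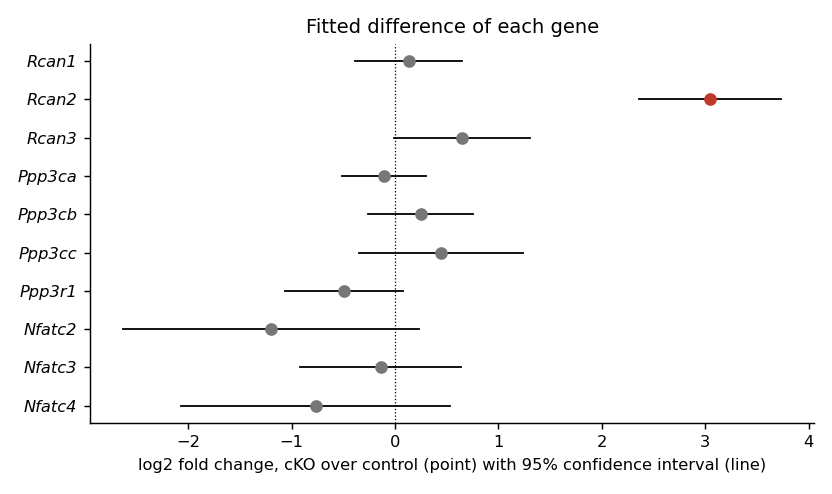
Log2 fold change of cKO over control for each gene (points) with its 95% confidence interval (lines), from edgeR's fit over all genes tested, with the gene called in red. *Rcan2* stands at 3.05, and the intervals of the other 9 genes include 0.

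*Rcan1*, the regulator best known as a gene of the Down syndrome region, was not called. It had 70.5, 38.2 and 61.5 CPM in cKO replicates 1 to 3, against 33.2 CPM in the lowest control, a median of 48.6 and 77.9 in the highest. The cKO libraries thus lay within the range of the controls, and the log2 fold change was 0.13 (SE 0.25, 95% confidence interval -0.39 to 0.65). It turned to -0.074 without cKO replicate 1. *Rcan3* (chromosome 4, 135412308 to 135433853, minus strand), the third family member, had 13.5, 17.7 and 11.9 CPM in cKO. In the controls it ran from 5.04 through a median of 9.71 to 12.8 CPM, so that 6 of 7 controls lay below all cKO libraries and control replicate 2 lay among them. Its log2 fold change was 0.65 (SE 0.31, 95% confidence interval -0.0090 to 1.31).

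Dividing by the length of merged exons puts the Rcan genes on a common scale, CPM per kb, on which their shares can be described. *Rcan2* made up 32.1% to 32.8% of the summed Rcan level in cKO (32.4% ± 0.38, SD, n = 3) and 3.05% to 10.9% in controls (5.64% ± 2.81, SD, n = 7). The share of *Rcan1* was 84.7% ± 4.55 (SD, n = 7) in controls and 58.0% ± 4.76 (SD, n = 3) in cKO, and it was the most abundant Rcan gene per length in each of the 10 libraries. The share of *Rcan3* was 9.60% ± 4.42 (SD, n = 3) and 9.66% ± 3.48 (SD, n = 7), with overlapping groups. The summed level averaged 19.6 ± 5.19 CPM per kb (SD, n = 7) in controls against 31.4 ± 7.09 (SD, n = 3) in cKO. In cKO it ran from 23.6 to 37.5 and in controls from 13.1 to 28.4 CPM per kb, so the sums overlapped although the share of *Rcan2* did not.

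**Figure D3:**
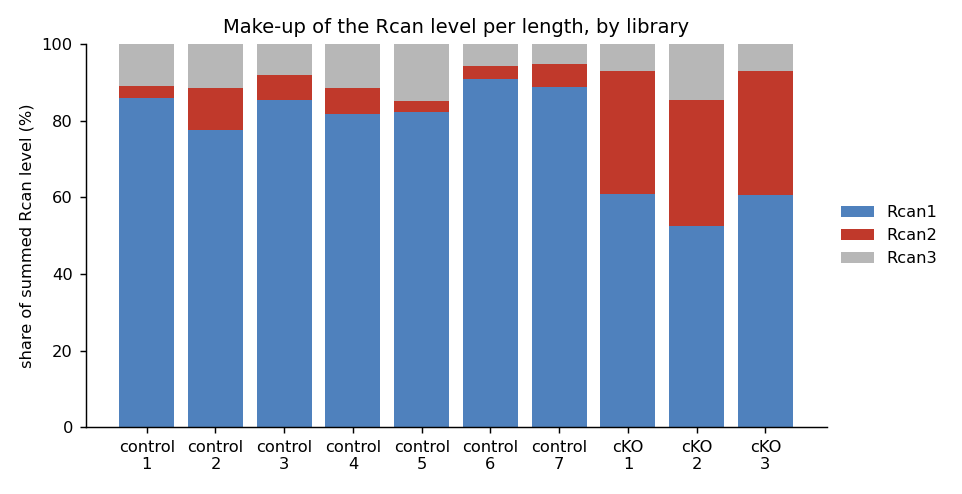
Share of *Rcan1*, *Rcan2* and *Rcan3* in the summed Rcan level (CPM per kb of merged exons) in each library, in percent. The *Rcan2* part is 32.1% to 32.8% in the 3 cKO libraries and at most 10.9% in the 7 controls.

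Markers of Cajal-Retzius cells differed between the genotypes as well. All 5 markers of Cajal-Retzius cells that could be tested were higher in cKO (*Reln*, *Trp73*, *Lhx1*, *Lhx5* and *Calb2*, log2 fold changes of 2.47 to 3.68, adjusted p from 0.000231 to 0.00276 in edgeR). *Reln* encodes the secreted protein by which these early-born neurons of the cortical surface are known. *Lhx1*, with the largest log2 fold change of the 5, had 0 to 3.57 CPM in controls and 12.2 to 21.2 CPM in cKO. It passed the filter on low counts through cKO, so its being higher there was partly built in. The log2 fold changes of the other tested markers were 2.47 to 2.86. The 7 markers of the list, with the untested *Ebf2* and *Ebf3*, summed to 548 to 663 CPM in cKO and to 16.3 to 162 CPM in controls, and none was at 0 throughout. Set against that sum, *Rcan2* in CPM averaged 6.49% ± 3.73 (SD, n = 7) in controls and 7.38% ± 1.40 (SD, n = 3) in cKO libraries, with 6.18% to 8.92% in cKO inside the control range of 2.00% to 13.3%. This ratio was chosen after the values had been seen, and 5 markers in its sum were called higher in the same contrast. The ends of the control range rest on 3 *Rcan2* reads in control replicate 5 and 6 in control replicate 1. Lying inside so wide a range therefore says little. The part of these markers in the difference of *Rcan2* was not tested.

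Projection neuron markers, 14 genes, summed to 5690 to 7288 CPM in cKO and to 8094 to 10552 CPM in controls. The groups did not overlap in this sum. *Tubb3* and *Neurod6* made up much of it, with means of 4533 and 2305 CPM in controls and 2992 and 1173 CPM in cKO. Directions within the list were mixed, with a median log2 fold change of -0.39. *Neurod1*, *Bcl11b*, *Slc17a7* and *Dcx* were positive, at 0.16 to 0.32, and the other markers of the list were negative. Radial glial progenitor markers overlapped, at 1424 to 2886 CPM in cKO and 1577 to 2766 in controls over 10 genes, and intermediate progenitor markers at 640 to 775 and 423 to 1019 CPM over 6 genes. Interneuron markers summed to 46.1 to 169 CPM in cKO and to 65.8 to 270.3 in controls over 9 genes. *Npy*, called lower, made up much of the control sums, with 31.8 to 234 CPM in controls and 0.79 to 17.4 in cKO, whereas *Dlx2* was called higher and the median log2 fold change over the 8 markers tested was 1.03. How far the values of the calcineurin genes follow these cell types was not tested.

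**Figure D4:**
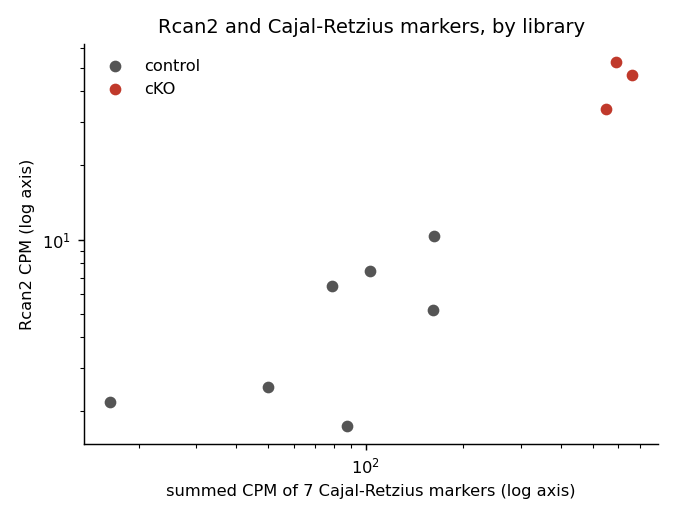
*Rcan2* in CPM against the summed CPM of 7 Cajal-Retzius markers, each on a log axis, with 1 point per library, controls in gray and cKO in red. The 3 cKO libraries lie highest on each axis, at 33.9 to 52.6 CPM of *Rcan2* and 548 to 663 CPM of markers, and the controls at 1.75 to 10.3 and 16.3 to 162 CPM.

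Over the 10 libraries the genes whose log2 CPM followed *Rcan2* most closely were *Isoc1* (Pearson's r = 0.966), *Phlda3* (0.963), *Ndnf* (0.953), *Zcchc12* (0.942) and *Slc7a3* (0.940). All 10 points share the genotype contrast, so the correlation is a description. Over the 7 controls alone r was 0.974 for *Ndnf*, 0.895 for *Isoc1*, 0.836 for *Zcchc12*, 0.811 for *Phlda3* and 0.679 for *Slc7a3*, an order with *Ndnf* in front. The genes were picked by r over all 10 libraries, which include these controls, so high values here are partly built in. *Rcan2* had only 3 to 29 reads in the controls. The log2 fold changes of these correlated genes were 1.16 for *Isoc1*, 2.39 for *Phlda3*, 3.19 for *Ndnf*, 3.16 for *Zcchc12* and 7.21 for *Slc7a3*. *Slc7a3* averaged 0.58 CPM in controls and 99.0 CPM in cKO, so it passed the filter on low counts through cKO. Its log2 fold change and its r over the controls rest on control values near 0.

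In the catalytic subunits the groups overlapped. *Ppp3ca* (ENSMUSG00000028161.17, chromosome 3, 136670124 to 136937727, plus strand), which encodes the alpha form of the A subunit, had 304, 318 and 324 CPM in cKO. In the controls it ran from 219 CPM in control replicate 1 through a median of 338 to 459 in control replicate 3, so the 3 cKO libraries sat inside a wide control range. Its log2 fold change was -0.11 (SE 0.19, 95% confidence interval -0.51 to 0.30). *Ppp3cb* (chromosome 14, 20499364 to 20546573, minus strand), the beta form, had 102, 141 and 57.3 CPM in cKO and 56.5 to 108 CPM in controls, with a median of 83.1. The lowest cKO library lay above 1 control and the highest above all of them, and the log2 fold change of 0.25 (SE 0.24) turned to -0.081 without cKO replicate 2. *Ppp3cc* (chromosome 14, 70217865 to 70289471, minus strand), the gamma form, had 23 to 35 reads in cKO and 12 to 38 in controls, or 9.76 to 11.8 and 4.28 to 13.8 CPM, with a log2 fold change of 0.44 (SE 0.38).

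Within the sets of libraries with few and with many reads outside genes, the log2 ratios were 0.068 and -0.28 for *Ppp3ca* and -0.32 and 0.25 for *Ppp3cb*, so their small differences had no common sign. Per length *Ppp3ca* made up 68.4% ± 7.54 (SD, n = 3) of the catalytic level in cKO and 72.8% ± 5.71 (SD, n = 7) in controls. The share of *Ppp3cb* ran from 15.4% to 31.3% in cKO (mean 23.9%) and from 17.5% to 25.7% in controls (mean 20.8%), a difference that changed sign without cKO replicate 2. That of *Ppp3cc* was 7.61% ± 1.08 (SD, n = 3) and 6.37% ± 3.82 (SD, n = 7). The summed catalytic level averaged 46.2 ± 9.21 CPM per kb (SD, n = 7) in controls against 46.4 ± 4.46 (SD, n = 3) in cKO. The ratio of the summed Rcan level to it averaged 0.433 ± 0.116 (SD, n = 7) in controls against 0.687 ± 0.195 (SD, n = 3) in cKO, and the cKO and control ranges of 0.462 to 0.817 and 0.271 to 0.641 overlapped.

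*Ppp3r1* (ENSMUSG00000033953.10, chromosome 11, 17159263 to 17200375, plus strand) encodes the calcium-binding B subunit that the catalytic subunits need. It had 26.3, 81.2 and 71.7 CPM in cKO and 65.2 to 114 CPM in controls, with a median of 79.9. cKO replicate 1 lay below all controls, and the other cKO libraries lay among them. The log2 fold change was -0.49 (SE 0.27, 95% confidence interval -1.06 to 0.079), and it was -0.12 without cKO replicate 1, -0.81 without cKO replicate 2 and -0.65 without cKO replicate 3.

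Of the NFAT factors, *Nfatc2* and *Nfatc4* had fewer reads over all libraries than any other of the 10 genes. *Nfatc2* (chromosome 2, 168476410 to 168601657, minus strand), best known from T cells, had 3, 9 and 4 reads in cKO and 3 to 34 in controls. These are 1.01 to 3.55 and 1.07 to 10.0 CPM, and 4 of 7 controls lay above all cKO libraries. Its log2 fold change was -1.20 (SE 0.68, 95% confidence interval -2.63 to 0.23), and both no change and a fall of more than 2-fold lie inside that interval. *Nfatc3* (chromosome 8, 106058840 to 106130537, plus strand) had 13 to 32 reads in cKO and 20 to 31 in controls, with a log2 fold change of -0.14 (SE 0.37) that turned to 0.20 without cKO replicate 1, to 0.012 with the strand-specific counts summed and to 0.038 with a replicate block. *Nfatc4* (chromosome 14, 55823144 to 55833943, plus strand), the family member known for its part in neuronal survival and axon growth, had 7 to 14 reads in cKO and 2 to 46 in controls. Its CPM ran from 2.76 to 4.72 in cKO and from 0.73 to 14.9 in controls, with a log2 fold change of -0.76 (SE 0.62) that was -0.35 without control replicate 4, the highest library, and turned to 0.022 with a replicate block.

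Of the 10 genes, 4 had a 95% confidence interval that lay between log2 fold changes of -1 and 1, namely *Rcan1*, *Ppp3ca*, *Ppp3cb* and *Nfatc3*. For *Rcan3*, *Ppp3cc*, *Ppp3r1*, *Nfatc2* and *Nfatc4* it did not.

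The levels in the 7 controls alone, which do not compare the genotypes, gave an order of the pathway's parts in these cells, although a low control level of *Rcan2* is part of the contrast that was known. Per kb of merged exons *Ppp3ca* was highest at 33.9 ± 8.69 CPM per kb (SD, n = 7), followed by *Ppp3r1* at 25.5 ± 5.33, *Rcan1* at 16.6 ± 4.73 and *Ppp3cb* at 9.57 ± 2.14. A lower tier held *Ppp3cc* at 2.68 ± 1.15, *Rcan3* at 1.79 ± 0.48, *Rcan2* at 1.17 ± 0.73, *Nfatc4* at 1.07 ± 0.77, *Nfatc3* at 0.77 ± 0.17 and *Nfatc2* at 0.44 ± 0.29 (CPM per kb, SD, n = 7). Neighbours in this order were compared within libraries on the log2 scale with an exact sign-flip permutation test, two-sided and adjusted over 9 pairs, whose smallest p with 7 libraries is 0.0156.

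In 3 pairs the higher gene was higher in 7 of 7 libraries, with an exact p of 0.0156 and an adjusted p of 0.0469 each. These were *Ppp3r1* over *Rcan1* (mean log2 difference 0.64 ± 0.44, SD, n = 7), *Rcan1* over *Ppp3cb* (0.79 ± 0.56) and *Ppp3cb* over *Ppp3cc* (1.89 ± 0.83). *Ppp3ca* over *Ppp3r1* (0.39 ± 0.57, adjusted exact p = 0.188) and *Rcan3* over *Rcan2* (0.78 ± 0.84, adjusted exact p = 0.105) were higher in 6 of 7 libraries and missed the threshold. The remaining pairs, among *Ppp3cc* and *Rcan3* and among *Rcan2* and the NFAT factors, had an adjusted exact p of 0.141 to 0.703 and missed it too. Of these, *Nfatc3* over *Nfatc2* (1.07 ± 1.21) was also higher in 6 of 7 libraries. Genes that were not neighbours in the order were not compared. The order rests on the length taken for each gene. With the longest transcript in place of merged exons *Ppp3cb* stood above *Rcan1*, and 0 of the 9 pairs passed.

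**Figure D5:**
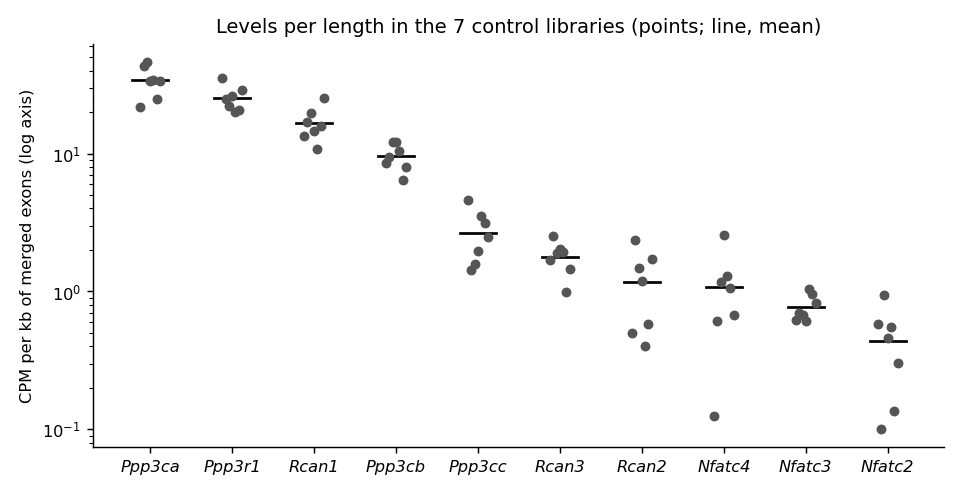
Levels of the 10 genes in the 7 control libraries in CPM per kb of merged exons on a log axis, from the highest mean to the lowest, with 1 point per library and a line at the mean. *Ppp3ca*, *Ppp3r1*, *Rcan1* and *Ppp3cb* form an upper tier with means of 9.57 or more, and the other 6 genes have means of 2.68 or less.

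In cKO the means per length were 31.6 CPM per kb for *Ppp3ca*, 18.5 for *Ppp3r1*, 18.4 for *Rcan1*, 11.3 for *Ppp3cb* and 10.2 for *Rcan2*. By mean per kb of merged exons *Rcan2* thus stood next below *Ppp3cb* in cKO, whereas in controls it stood between *Rcan3* and *Nfatc4*. The SD in cKO was 2.19 for *Rcan2* and 4.74 for *Ppp3cb* (n = 3). In single libraries *Rcan2* was the higher in cKO replicates 1 and 3, and *Ppp3cb* in cKO replicate 2. The placement in cKO also depends on the length taken. Merged exons and longest transcript measure 8809 and 3831 bases for *Ppp3cb*, and 4372 and 3313 bases for *Rcan2*.

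The rest of the pathway was read from 5 lists with 51 genes, of which 45 had enough reads to be tested. In edgeR's test 0 of the 45 were called in either direction (3.15% of all genes tested were). Of the 45, 8 had an unadjusted p under 0.05 in edgeR, as did 1890 of all genes tested (16.4%). DESeq2 called 2 of the 45 beside 510 of all genes tested, and limma-voom 0 beside 297. The median log2 fold change over the 45 genes was -0.044, beside 0.011 over all genes tested.

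Calmodulins, the calcium sensors that switch calcineurin on, had positive log2 fold changes in 3 of 3 genes, from 0.087 to 0.29, and *Calm2* was the highest per length at 1046 CPM per kb in controls. Of the channels and sensors of calcium entry and release, 10 of 13 could be tested, with a median of -0.16. *Orai1*, the pore of the store-operated channel, was the highest of them in controls at 21.3 CPM per kb, and its log2 fold change was -0.26 (SE 0.21, adjusted p = 0.617 in edgeR). *Itpr1*, the IP3 receptor that releases calcium from the endoplasmic reticulum, was at the low end with -0.82 (SE 0.39, adjusted p = 0.302 in edgeR).

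Among other subunits, inhibitors, anchors and immunophilins 6 of 8 genes could be tested, with a median log2 fold change of -0.047. *Ppia* and *Fkbp1a* encode the immunophilins through which cyclosporin and tacrolimus block calcineurin, and *Ppia* was highest in controls at 271 CPM per kb, with a log2 fold change of 0.29 (SE 0.15, adjusted p = 0.344 in edgeR). The B subunit paralog *Ppp3r2* had 0 CPM in every library. NFAT kinases, which return NFAT to the cytoplasm, were all tested, 7 of 7, with log2 fold changes between -0.29 and 0.20. *Gsk3b* was the highest of them in controls at 42.9 CPM per kb, with a log2 fold change of -0.16 (SE 0.15, adjusted p = 0.657 in edgeR). *Dyrk1a*, a kinase gene of the Down syndrome region like *Rcan1*, stood at 0.17 (SE 0.25, adjusted p = 0.81 in edgeR).

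Other calcineurin substrates spread most, with 10 positive and 9 negative log2 fold changes among 19 of 20 genes tested and a median of 0.055. *Mef2c*, a transcription factor of cortical neurons, had 302 CPM in cKO and 504 in controls, a log2 fold change of -0.74 (SE 0.20, adjusted p = 0.0512 in edgeR). That p crossed the threshold in several of the alternatives tried, as 0.0175 in DESeq2. *Gap43*, a growth cone protein gene, was highest in controls at 474 CPM per kb and stood at 0.47 (SE 0.14, adjusted p = 0.0791 in edgeR), and DESeq2 called it too. *Dnm1l*, the dynamin-related gene of mitochondrial fission, was the 1 gene of the 45 whose groups did not overlap, beside 6.00% of all genes tested, at 105 CPM in cKO and 134 in controls with a log2 fold change of -0.35 (SE 0.14, adjusted p = 0.216 in edgeR).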

How the data were processed

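RNA-seq libraries of 3 cKO-*Cdkn1c*-MADM-7 and 7 control embryos were analysed. The authors aligned reads to GRCm38 with STAR 2.5.0c (bedtools 2.26.0 for conversion), and, counting only uniquely aligned reads, deposited raw counts for Gencode M16 genes in 3 columns, of which the column that ignores strand was used. Reads over more than 1 gene are in no count. No molecular identifiers were described, so reads are not independent molecules.

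Symbols, positions and lengths came from GENCODE M21 (50604 of 53379 identifiers matched with version, 2670 without, 105 not). Genes that averaged 10 reads or more over the libraries were tested with edgeR 4.0.16 (TMM, glmQLFit, glmQLFTest, genotype alone) in R 4.3.3, with Benjamini-Hochberg adjustment over all 11551 genes and a threshold of 0.05. The fits were tested on simulated data. Standard errors are the log2 fold change divided by the root of the F statistic, and 95% confidence intervals use the t distribution of that test. CPM uses TMM library sizes. CPM per kb divides by merged exon length. A pseudocount of 0.5 reads was used for the order of levels. Single embryos were the replicates, and within groups no pair of libraries was a duplicate (chi-square per degree of freedom of 4.93 to 23.8 over 24 pairs).

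Alternatives were DESeq2 1.42.0, limma-voom (limma 3.58.1), other scaling, filters, count column, a covariate, a replicate block, gene length and each library left out. The genes, lists, alternatives and tests were chosen with earlier results of these data known. Named genes are the 10 genes, *Cdkn1c*, genes of the pathway lists that were called, the highest of each list in controls and the 5 genes most correlated with *Rcan2*. Cell type markers are named from the marker lists, where they were called, untested or at 0, or define the cell type. *Itpr1*, *Mef2c*, *Marcks*, *Dnm1l*, *Fkbp1a*, *Ppp3r2*, *Dyrk1a* and the single projection neuron markers were named after their values were seen. Figures used matplotlib 3.10.9. Calls for single projection neuron markers are not reported here.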

Additional observations from a re-analysis of the deposited data

How the results depend on the processing

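*Rcan2* stayed the only one of the 10 genes called, in the same direction, under all 18 alternatives to the genotype fit, with log2 fold changes of 2.80 to 3.28. The number of all genes called moved from 364 to 961 with no filter on low counts and to 213 with the replicate number as a block, and ran from 271 to 424 when each library was left out. Replicate numbers did not pair the libraries: deviations of same-numbered libraries correlated at 0.0407, -0.103 and -0.211, and each cKO library correlated most with a control of another number. Under the replicate block 1 of the 10 genes was called, as without it, and 1 gene of the pathway lists, *Mef2c*. The count of pathway genes called in the main fit was 0 of 45, beside 364 of all genes. It was 2 with DESeq2 (*Mef2c*, *Gap43*), beside 510 of all genes, and with no filter 3 of 50 (with *Marcks*), beside 961. With filterByExpr it was 1 (*Mef2c*), beside 400, and with the outside-gene read share as a covariate 2 (*Mef2c*, *Itpr1*), beside 385. When a library was left out it was 0 to 1, beside 271 to 424 of all genes. *Mef2c* was called without cKO replicate 1, control replicate 5 or control replicate 6, and *Gap43* without cKO replicate 2. The adjusted p of *Mef2c* ran from 0.000107 to 0.192 over the alternatives.

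Fitted log2 fold changes that changed sign, none of them called, were those of *Rcan1* without cKO replicate 1 (-0.074, in a leave-one-out range up to 0.34), *Ppp3cb* without cKO replicate 2 (-0.081, range up to 0.52), *Nfatc3* with the strand-specific counts summed (0.012), with the replicate block (0.038) and without cKO replicate 1 (0.20, range from -0.61), and *Nfatc4* with the replicate block (0.022). *Nfatc2* fell below the filter without control replicate 3. The number of neighbouring pairs in the order of levels that passed, 3, became 0 with the longest transcript length, and 0 to 0 when a control was left out, where the smallest exact p is 0.0312 and the adjustment over 9 pairs leaves little room. The cKO minus control difference in the share of *Ppp3cb* among catalytic subunits, 3.11 percentage points, ran from -0.54 without cKO replicate 2 to 7.38 without cKO replicate 3, that of *Ppp3ca*, -4.35, from -8.55 without cKO replicate 3 to -1.26 without cKO replicate 2, and that of *Ppp3cc*, 1.24, from 0.62 to 2.37. The share of *Rcan2* in the Rcan level, 26.8 percentage points higher in cKO, ran from 26.4 to 27.7. The difference in the ratio of the summed Rcan to the summed catalytic level, 0.254, was 0.159 with the longest transcript length and 0.189 to 0.366 when a library was left out. *Rcan3*, *Ppp3cc*, *Nfatc2*, *Nfatc3* and *Nfatc4* had under 50 reads in every library, which limits their precision beside the 3 cKO libraries.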
